A study of Mus musculus with 139 samples.

Results

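Neurod1, Pax6, Sox1, Nes, Tubb3, Map2 and Hes5, which mark steps of neural commitment, were followed by symbol through every expression table of a mouse embryonic stem cell series. Of these 7 genes, 6 had a row among the 52885 genes of each table, and Tubb3 was not analysed here. The series asks what loss of the RNA exosome does to the nucleus of AID-FBEXOSC2 embryonic stem cells (ESCs), a line in which the exosome subunit EXOSC2 carries an auxin-inducible degron. The auxin indole-3-acetic acid (IAA, 0.5 mM) degrades the protein, and cells at 0 h received none. Every group compared here carries the degron, and no IAA-treated cells without it were used here, so loss of EXOSC2 and exposure to IAA cannot be told apart. Exosc2 mRNA (2.83 to 6.91 FPKM in the retinoic acid experiment) does not check the loss, since the degron acts on the protein. Elsewhere Exosc2 averaged 3.25 FPKM at 0 h and 0.989 FPKM at 20 h in total RNA of ESCs, and 2.31 RPKM at 0 h and 2.78 RPKM at 4 h in nascent RNA.

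The genes were measured in 70 RNA libraries of the 139 samples that the labels describe. In the retinoic acid experiment, poly(A) RNA was taken at 0, 4 and 20 h of IAA from 2 states labelled RAD1 and RAD0, and the protocol gives a withdrawal of the cytokine LIF with 2 µM retinoic acid for 24 h. The labels do not spell out the codes, and RAD1 is read here as the cells given retinoic acid and RAD0 as those not given it. All RAD1 groups had 24 h of retinoic acid, and whether IAA ran within or after it is not given here. For RAD1, rose and fell thus mean above and below 0 h. A fall cannot be told apart from a weaker rise, nor a rise from a weaker fall. Nascent RNA, pulsed for 10 min with 5-ethynyluridine (EU), was taken at 0, 1, 2 and 4 h. Ribosome-depleted total RNA was taken at 0, 4 and 20 h from ESCs and from iMEFs, which are fibroblasts grown from the same ESCs over 10 days in 1 µM retinoic acid. Poly(A) RNA of an insoluble nuclear pellet (RNPmesh) was taken at 0, 4 and 12 h. The chromatin-containing insoluble fraction (chrRNP), nucleoplasm (np), cytosol (cyto) and whole-cell lysate (wcl) were taken at 4 h and 0 h. Each of these groups held 2 libraries, which the labels do not tie to separate cultures, so p-values measure the spread between libraries and that spread may be technical. Nuclear lysates on sucrose gradients gave 1 library for each of fractions 2 to 9 at 12 h and 0 h, and H3K27ac peaks were listed at 4 h and 0 h.

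Neurod1 encodes a basic helix-loop-helix factor that drives neuronal and endocrine differentiation. Sox1 and Pax6 encode transcription factors of the early neural plate and of neural progenitors, and Hes5 encodes a repressor that Notch signalling turns on to hold progenitors back from differentiation. Nes encodes nestin, an intermediate filament protein of neural progenitors, while Map2 and Tubb3 encode a microtubule-associated protein and a tubulin of neurons. In culture, retinoic acid after LIF withdrawal moves mouse ESCs toward neural and other fates.

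In mm10 coordinates, as in the tables, Neurod1 spans chr2:79452521-79456751, Pax6 chr2:105668900-105697364, Sox1 chr8:12395295-12400126, Nes chr3:87971093-87980451, Map2 chr1:66175313-66442583 and Hes5 chr4:154960923-154962371. All 6 are annotated as protein-coding. The promoters of the 3 genes whose RNA went up in at least 1 comparison with IAA are shown from RefSeq (GRCm38.p6), 250 bases before to 50 bases after the RefSeq gene start, 5′ to 3′ on the strand of the gene, with E-boxes (CANNTG, the motif that basic helix-loop-helix factors bind, the same on both strands) in capitals. Neurod1 lies on the minus strand with this window at chr2:79456587-79456886, Sox1 on the plus strand at chr8:12395269-12395568 and Nes on the plus strand at chr3:87970843-87971142.
Neurod1: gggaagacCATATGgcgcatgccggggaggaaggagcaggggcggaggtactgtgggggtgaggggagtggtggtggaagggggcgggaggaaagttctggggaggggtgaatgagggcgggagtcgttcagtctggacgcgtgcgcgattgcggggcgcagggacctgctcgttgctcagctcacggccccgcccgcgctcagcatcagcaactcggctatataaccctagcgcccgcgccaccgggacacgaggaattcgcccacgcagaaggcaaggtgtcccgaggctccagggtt
Sox1: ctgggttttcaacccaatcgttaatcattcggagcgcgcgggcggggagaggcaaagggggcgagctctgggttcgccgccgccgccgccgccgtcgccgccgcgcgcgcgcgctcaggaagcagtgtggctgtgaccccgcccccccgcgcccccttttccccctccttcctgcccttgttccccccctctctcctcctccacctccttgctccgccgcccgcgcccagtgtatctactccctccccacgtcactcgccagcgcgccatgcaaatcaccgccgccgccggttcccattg
Nes: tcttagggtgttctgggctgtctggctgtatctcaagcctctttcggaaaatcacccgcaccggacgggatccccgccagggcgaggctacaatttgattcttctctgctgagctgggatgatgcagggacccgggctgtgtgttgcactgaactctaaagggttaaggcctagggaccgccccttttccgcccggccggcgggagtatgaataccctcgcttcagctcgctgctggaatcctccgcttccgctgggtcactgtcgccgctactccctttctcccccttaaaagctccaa
The Neurod1 window held 1 E-box, starting at position -242 from the gene start, and the Sox1 and Nes windows held none, while 72.3% of 32851 RefSeq promoter windows of this length held at least 1. None of these 3 windows held AGGTCA or its reverse complement TGACCT, the half-site that retinoic acid receptors bind, which 16.3% of the windows held. These matches describe letters only.

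Before IAA, genes of the set differed between the RAD1 and RAD0 states. By the protocol, retinoic acid came together with the withdrawal of LIF, so these cannot be told apart. At 0 h, Pax6, Sox1 and Nes were higher and Neurod1 was lower in RAD1 than in RAD0. These are 4 of the 5 genes of the set that were tested, since Hes5 did not reach 1 FPKM in 2 libraries. Of all 15408 genes tested, 46.7% were called in this comparison, 27.7% higher and 19.0% lower (limma on log2(FPKM + 1), Benjamini-Hochberg adjusted p under 0.05). After the libraries were rescaled to a common median gene, 22.9% were higher and 23.8% lower. Neurod1 measured 0.743 and 1.04 FPKM in RAD1, against 8.88 and 9.82 FPKM in RAD0. Both RAD1 libraries lay far below both RAD0 libraries (log2 difference -2.45 ± 0.11, SE, adjusted p = 8.84e-07).

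Pax6 measured 3.46 and 3.50 FPKM in RAD1, against 1.09 and 0.630 FPKM in RAD0. Sox1 measured 6.38 and 6.05 FPKM in RAD1, against 3.08 and 2.44 FPKM in RAD0. Neither gene's libraries overlapped between the states, with log2 differences of 1.28 ± 0.17 for Pax6 (adjusted p = 0.000369) and 0.95 ± 0.13 for Sox1 (adjusted p = 0.000483). Nes was 1.82 and 1.94 FPKM in RAD1 and 1.08 and 1.19 FPKM in RAD0, a smaller difference of 0.43 ± 0.10 (adjusted p = 0.00595). Map2 did not pass the test (1.31 and 1.66 FPKM in RAD1, 1.26 and 1.14 FPKM in RAD0, log2 difference 0.17 with a 95% interval of -0.18 to 0.53). As a check of the reading of the codes, all 13 retinoic acid response genes on a list were higher in RAD1 at 0 h. Among them Cyp26a1, the enzyme that clears retinoic acid, averaged 267 FPKM in RAD1 and 0.793 FPKM in RAD0.

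**Figure D1:**
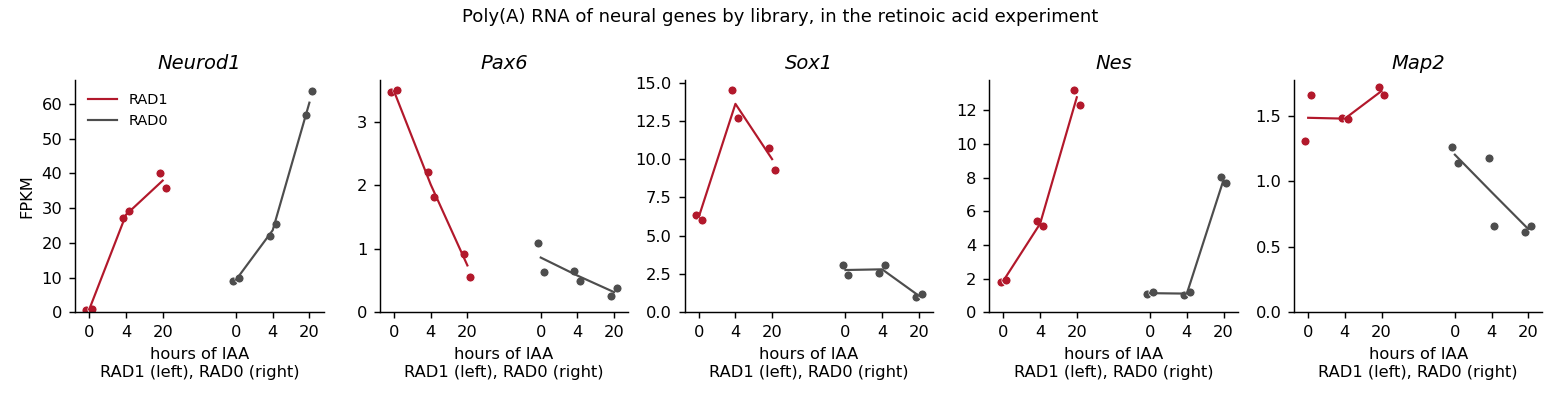
FPKM (vertical axis) of 5 neural genes in each poly(A) library of the retinoic acid experiment, at 0, 4 and 20 h of IAA, with RAD1 on the left and RAD0 on the right of each panel. Points are libraries and lines join group means. Neurod1 reached 35.6 to 40.2 FPKM at 20 h in RAD1 and 56.9 to 63.8 FPKM at 20 h in RAD0, while Pax6 went down with IAA in RAD1.

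With IAA, Neurod1 rose in both states, and on the log2 scale the state with the lower 0 h level showed the larger change. Neurod1 was lower in RAD1 than in RAD0 at 0 h, so its rise in RAD1 cannot be told apart from a weaker fall. In RAD1 it measured 0.743 and 1.04 FPKM at 0 h, 27.2 and 29.0 FPKM at 4 h and 40.2 and 35.6 FPKM at 20 h. In RAD0 it measured 8.88 and 9.82 FPKM at 0 h, 21.9 and 25.3 FPKM at 4 h and 56.9 and 63.8 FPKM at 20 h. Libraries of different times did not overlap within either state. The 4 h mean was 31.4 times the 0 h mean in RAD1 and 2.53 times in RAD0, while the highest level in FPKM was reached in RAD0, with a mean of 60.3 FPKM at 20 h beside 37.9 FPKM in RAD1.

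On the log2 scale the change of Neurod1 was 3.95 ± 0.11 at 4 h and 4.36 ± 0.11 at 20 h in RAD1 (limma adjusted p = 7.02e-08 and 2.42e-08). In RAD0 it was 1.25 ± 0.11 at 4 h and 2.57 ± 0.11 at 20 h (adjusted p = 0.000251 and 6.53e-07). The difference between the states in these changes was 2.70 ± 0.16 at 4 h (adjusted p = 2.23e-05) and 1.80 ± 0.16 at 20 h (adjusted p = 0.000147). At 4 h the level in RAD1 was slightly above that in RAD0, and at 20 h it was below it. Ordered by level, the groups ran RAD0 at 20 h, RAD1 at 20 h, RAD1 at 4 h, RAD0 at 4 h, RAD0 at 0 h and RAD1 at 0 h, and no 2 neighbours in that order overlapped.

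Sox1 rose in RAD1 at both times and fell in RAD0 at 20 h. In RAD1 it measured 6.38 and 6.05 FPKM at 0 h, 14.5 and 12.7 FPKM at 4 h and 10.7 and 9.27 FPKM at 20 h. In RAD0 it measured 3.08 and 2.44 FPKM at 0 h, 2.54 and 3.07 FPKM at 4 h and 0.974 and 1.19 FPKM at 20 h. In RAD1 both later times lay above 0 h without overlap, whereas in RAD0 the 0 and 4 h libraries overlapped and the 20 h libraries lay below both. The log2 change was 1.02 ± 0.13 at 4 h and 0.61 ± 0.13 at 20 h in RAD1 (adjusted p = 0.000315 and 0.00422), and it was 0.02 ± 0.13 at 4 h (adjusted p = 0.953) and -0.85 ± 0.13 at 20 h (adjusted p = 0.000768) in RAD0. The change in RAD1 exceeded that in RAD0 by 1.00 ± 0.19 at 4 h (adjusted p = 0.00544) and by 1.45 ± 0.19 at 20 h (adjusted p = 0.000929).

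Pax6 fell in RAD1 at 20 h. Its libraries measured 3.46 and 3.50 FPKM at 0 h, 2.20 and 1.82 FPKM at 4 h and 0.913 and 0.561 FPKM at 20 h in RAD1, each time below the one before. In RAD0, where every library was near or below 1 FPKM, they measured 1.09 and 0.630 FPKM at 0 h, 0.656 and 0.499 FPKM at 4 h and 0.254 and 0.381 FPKM at 20 h. The change at 20 h in RAD1 was -1.37 ± 0.17 (adjusted p = 0.000163). The value of -0.58 ± 0.17 at 4 h in RAD1 had an adjusted p of 0.0212, and after rescaling it was -0.47 with 0.0521. The value of -0.49 ± 0.17 at 20 h in RAD0 had an adjusted p of 0.0404, and after rescaling it was -0.44 with 0.0638. The change at 20 h differed between RAD1 and RAD0 by -0.88 ± 0.24 (adjusted p = 0.0283), a call that was lost without the second RAD0 library of 0 or 20 h, either RAD1 library of 0 h or the second RAD1 library of 20 h (adjusted p up to 0.088). The 4 h value in RAD1 was likewise lost without either RAD1 library of 0 h or the second of 4 h (adjusted p up to 0.107), and the 20 h value in RAD0 without 7 of the 12 libraries in turn (adjusted p up to 0.231).

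Nes rose in both states, earlier in RAD1. It measured 1.82 and 1.94 FPKM at 0 h, 5.40 and 5.13 FPKM at 4 h and 13.2 and 12.3 FPKM at 20 h in RAD1. In RAD0 it measured 1.08 and 1.19 FPKM at 0 h, 1.04 and 1.18 FPKM at 4 h and 8.02 and 7.69 FPKM at 20 h. In RAD0 the 4 h libraries overlapped those of 0 h, and in RAD1 they were all higher. The log2 changes were 1.12 ± 0.10 at 4 h and 2.26 ± 0.10 at 20 h in RAD1 (adjusted p = 2.70e-05 and 2.74e-07), and -0.02 ± 0.10 at 4 h (adjusted p = 0.931) and 2.05 ± 0.10 at 20 h (adjusted p = 9.24e-07) in RAD0. The difference between the states was 1.14 ± 0.14 at 4 h (adjusted p = 0.000580) and 0.20 ± 0.14 at 20 h (adjusted p = 0.308, 95% interval -0.10 to 0.51).

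Map2 stayed between 0.612 and 1.72 FPKM in all 12 libraries of the experiment. At 20 h it measured 1.72 and 1.66 FPKM in RAD1 and 0.612 and 0.662 FPKM in RAD0. The value against 0 h was 0.12 ± 0.16 in RAD1 (adjusted p = 0.548) and -0.43 ± 0.16 in RAD0 (adjusted p = 0.0462, or 0.0941 after rescaling). The RAD0 call was lost without any 1 of the libraries other than those of RAD0 at 4 h (adjusted p up to 0.156). Hes5 was listed at 0 in 11 of the 12 libraries and at 0.134 FPKM in the other.

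In counts, 3 of the 5 tested genes of the set were higher and 1 lower at 4 h in RAD1, where 18.1% of all genes were higher and 32.7% lower (50.8% called; after rescaling 22.5% and 24.9%, and 3 and 0 of the set). At 20 h in RAD1 the count was again 3 higher and 1 lower, where 23.1% of all genes were higher and 33.8% lower (57.0% called). In RAD0, 1 was higher and 0 lower at 4 h (5.26% and 13.5% of all genes, 18.8% called, or 6.03% and 4.47% after rescaling), and 2 were higher and 3 lower at 20 h (18.4% and 33.0% of all genes, 51.4% called). After rescaling the RAD0 count at 20 h was 2 higher and 1 lower, with 23.9% and 24.8% of all genes. The change itself was larger in RAD1 for 3 genes and smaller for 0 at 4 h (12.7% and 14.5% of all genes, 27.2% called), and larger for 2 and smaller for 1 at 20 h (13.9% and 11.6% of all genes, 25.6% called). The median of all genes tested moved by -0.11 to -0.14 with IAA in these 4 contrasts, against which the changes of Neurod1, Sox1 and Nes above kept their calls after rescaling. In bulk libraries, a change in the number of cells that express a gene and a change in RNA per cell cannot be told apart.

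Markers of other cell types moved in the same libraries. The summed level of 7 pluripotency markers was 391 to 409 FPKM at 0 h, 393 to 395 FPKM at 4 h and 308 to 323 FPKM at 20 h in RAD1, and 1197 to 1239, 966 to 985 and 655 to 673 FPKM in RAD0. The sum of 6 neuron markers (Dcx, Stmn2, Rbfox3, Elavl3, Elavl4 and Syp), of which 2 or 3 averaged at least 1 FPKM in each group, was 30.2 to 33.7, 12.0 to 15.9 and 16.8 to 19.7 FPKM at these times in RAD1, and 103 to 106, 101 to 103 and 42.8 to 42.9 FPKM in RAD0. So the neuron marker sum was lower at 20 h while Neurod1 and Nes were higher. That sum rests on few genes and was higher in RAD0 than in RAD1 at 0 h, so it is not read here as a measure of neurons. The sum of 6 trophoblast markers was 8.55 to 9.79 FPKM at 0 h and 45.9 to 56.1 FPKM at 20 h in RAD1, and 13.9 to 14.2 FPKM at 0 h and 43.4 to 50.7 FPKM at 20 h in RAD0, with Elf5 at 0 at 20 h. Of these 6, 2 averaged at least 1 FPKM at 0 h in either state, and 4 in RAD1 and 3 in RAD0 at 20 h. The sum of 5 neural crest markers was 3.13 to 3.98 FPKM at 0 h, 3.19 to 3.84 FPKM at 4 h and 9.97 to 11.1 FPKM at 20 h in RAD1, and 26.2 to 28.5, 12.6 to 15.2 and 7.23 to 8.11 FPKM in RAD0. Those averaging at least 1 FPKM numbered 1, 1 and 3 of the 5 in RAD1 at these times, and 2 at each time in RAD0. At 20 h this sum, which rests on few genes, was higher in RAD1 and lower in RAD0 than at 0 h, as Sox1 was. The sum of 7 endoderm markers was 25.2 to 25.5 FPKM at 0 h and 5.82 to 6.12 FPKM at 20 h in RAD1, and 3.26 to 4.60 FPKM at 0 h and 1.93 to 2.30 FPKM at 20 h in RAD0. Of these 7, 5 averaged at least 1 FPKM at 0 h and 3 at 20 h in RAD1, and 1 and 0 in RAD0. The part of these markers in the results above was not tested.

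Nascent Neurod1 RNA was called higher at 4 h of IAA, and not at 1 or 2 h. What changed its level was not tested. The 2 libraries of each time measured 1.70 and 1.15 RPKM at 0 h, 0.894 and 1.05 RPKM at 1 h, 3.55 and 2.17 RPKM at 2 h and 13.6 and 17.1 RPKM at 4 h. Only the 4 h libraries stood well apart, at 10.8 times the mean of 0 h. On the log2(RPKM + 1) scale the values were -0.29 ± 0.23 at 1 h (adjusted p = 0.951), 0.66 ± 0.23 at 2 h (adjusted p = 0.549) and 2.76 ± 0.23 at 4 h (limma adjusted p = 0.0219). Neurod1 was the 1 gene of the set tested on this scale. Of 8876 genes, 0.0451% were called at 1 h and 0.0113% at 2 h, all higher, and 1.90% at 4 h, of which 1.57% higher and 0.338% lower. At an unadjusted p under 0.05 there were 487 genes at 1 h and 719 at 2 h.

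The nascent values of each library were mostly whole multiples of its smallest step, and 97.4 to 98.2% of these multiples under 100 were even, so that reads came nearly always in pairs and a pair was taken as 1 count. Of the values under 100 pairs, 93.6 to 95.1% were whole (within 0.05 of a pair), from which totals of 2677600 to 5651897 pairs per library follow. Neurod1 had 39 and 13 pairs at 0 h, 18 and 20 at 1 h, 85 and 46 at 2 h and 230 and 257 at 4 h. A fit of these pairs with limma-voom, added after the data were seen and keeping genes with at least 20 pairs in at least 2 libraries, gave a log2 change of 3.34 ± 0.62 at 4 h (adjusted p = 2.23e-05, 8.83% of 11801 genes called). On the RPKM scale the 4 h change lay between 2.59 and 2.92 with any 1 library left out, but the call was lost without any 1 library of 0, 1 or 4 h (adjusted p up to 0.113).

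The same counts allowed a test of Map2, which was under 1 RPKM over its span of 267271 bases and so was not tested on that scale. Map2 had 295 and 158 pairs at 0 h, 210 and 192 at 1 h, 122 and 209 at 2 h and 58 and 46 at 4 h. The 4 h libraries lay below all others, and nascent Map2 fell by 1.96 ± 0.43 on the log2 scale (limma-voom adjusted p = 0.000525), so that Map2 and Neurod1 went in opposite directions. The limma-voom fit was run once on all libraries, so how far the Map2 call depends on any 1 library was not checked. Pax6 had 39 and 10 pairs at 0 h and 0 and 8 at 4 h, which did not pass the test (log2 difference -3.54 ± 2.30, adjusted p = 0.403). Sox1 and Nes had at most 14 pairs in any library and Hes5 none, so that they missed the minimum of 20 pairs and were not tested.

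**Figure D2:**
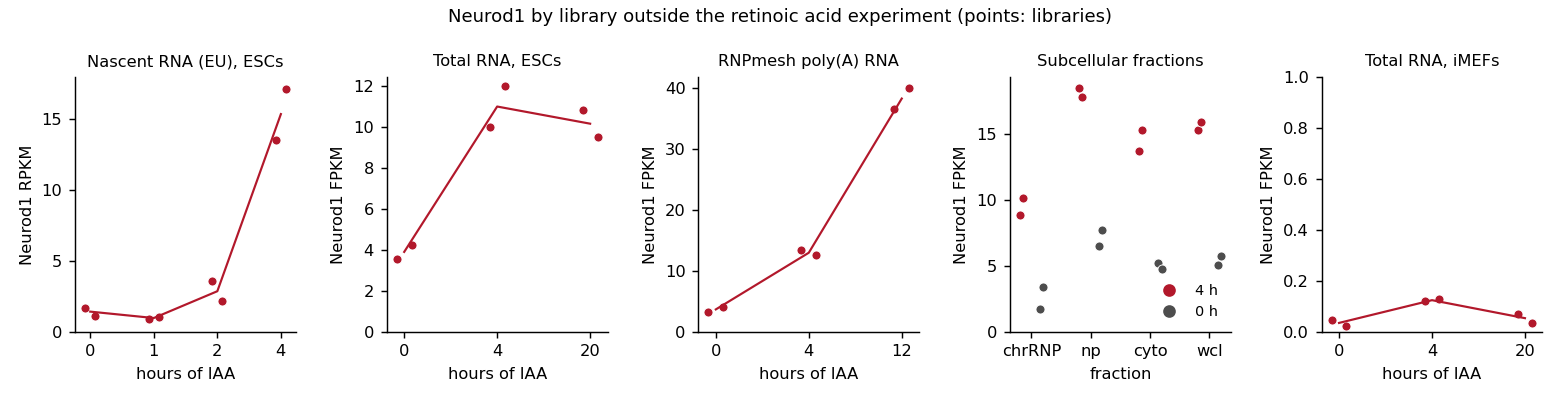
Neurod1 in each library of the tables outside the retinoic acid experiment, against hours of IAA or, for subcellular fractions, with 4 h left of 0 h. Points are libraries, lines join group means, and values are RPKM for nascent RNA and FPKM elsewhere. In ESCs and their fractions Neurod1 was higher at 4 h than at 0 h, and in iMEFs, whose axis ends at 1 FPKM, every library was at or below 0.129 FPKM.

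In total RNA of ESCs, Neurod1 and Nes rose and Map2 fell. Neurod1 measured 3.55 and 4.26 FPKM at 0 h, 10.0 and 12.0 FPKM at 4 h and 10.8 and 9.53 FPKM at 20 h. Both later times lay above 0 h and overlapped each other, with log2 changes of 1.29 ± 0.14 at 4 h (adjusted p = 0.00796) and 1.19 ± 0.14 at 20 h (adjusted p = 0.000421). At 20 h the median of all genes tested was -0.76, and relative to a common median gene the change of Neurod1 was 2.01.

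Nes measured 1.57 and 1.44 FPKM at 0 h, 1.16 and 1.25 FPKM at 4 h and 7.84 and 7.69 FPKM at 20 h. It stood out at 20 h only, with a change of 1.81 ± 0.11 (adjusted p = 8.48e-05), as in RAD0. Map2 measured 2.40 and 2.41 FPKM at 0 h, 1.02 and 1.45 FPKM at 4 h and 0.218 and 0.182 FPKM at 20 h. Its 20 h mean was 0.0833 of its 0 h mean, a fall of 1.50 ± 0.15 on the log2(FPKM + 1) scale, which understates the change of a gene this low (adjusted p = 0.000230, and -1.10 after rescaling). The 4 h value of -0.61 ± 0.15 had an adjusted p of 0.0369, or 0.150 after rescaling, and was lost without any 1 library other than the second of 4 h (adjusted p up to 0.177).

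Of the 3 tested genes, 1 was higher and 1 lower at 4 h, where 4.47% of 12461 genes were higher and 21.2% lower (25.6% called). After rescaling these shares were 5.93% and 2.05%, with 1 gene of the set higher and 0 lower. At 20 h 2 were higher and 1 lower, where 9.47% of all genes were higher and 67.8% lower (77.3% called). After rescaling 27.5% of all genes were higher and 27.8% lower at 20 h, and the count of the set was again 2 and 1. Pax6 (0.684 and 0.686 FPKM at 0 h, 0.0420 and 0.0913 FPKM at 20 h) and Sox1 (0.831 and 0.718 FPKM at 0 h, 0.346 and 0.255 FPKM at 20 h) were below 1 FPKM throughout and were not tested in this table. All 7 pluripotency markers averaged at least 1 FPKM in the ESC groups, and their sum was 730 to 769 FPKM at 0 h, 533 to 623 FPKM at 4 h and 190 to 203 FPKM at 20 h. The neuron marker sum was 36.9 to 38.9, 26.5 to 33.1 and 7.11 to 7.30 FPKM at these times, with Dcx and Rbfox3 at 0 at 4 and 20 h, and its part in the fall of Map2 was not tested. In each ESC group 2 of the 6 neuron markers averaged at least 1 FPKM.

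In iMEFs, Nes and Map2 were the genes of the set with the highest levels, and all 6 fibroblast markers averaged at least 1 FPKM. Their summed level was 1317 to 1370 FPKM at 0 h, 1238 to 1246 FPKM at 4 h and 984 to 1139 FPKM at 20 h, lower with IAA as Nes and Map2 were, and its part in their values was not tested. Nes measured 34.2 and 30.8 FPKM at 0 h, 25.3 and 26.2 FPKM at 4 h and 25.4 and 21.0 FPKM at 20 h. Map2 measured 7.51 and 8.03 FPKM at 0 h, 6.32 and 5.87 FPKM at 4 h and 5.47 and 4.63 FPKM at 20 h. For both genes every IAA library lay below every 0 h library. The share of all genes separated in this way was not counted. The median log2 change of all genes tested was -0.17 at 4 h and -0.19 at 20 h, so part of both falls is shared with most genes. At 4 h 0 of these 2 genes were higher or lower (limma, 1.43% of all genes higher, 0.200% lower and 1.63% called), and at 20 h the log2 changes were -0.47 ± 0.12 for Nes (adjusted p = 0.0296, or 0.0744 after rescaling) and -0.54 ± 0.11 for Map2 (adjusted p = 0.0142, or 0.0149 after rescaling), with 5.21% of 12988 genes higher and 22.2% lower (27.4% called, or 13.2% and 13.5% after rescaling). Both calls were lost without either 0 h library (adjusted p up to 0.158 for Nes and 0.0895 for Map2), and that of Nes also without either 4 h library or the second 20 h library.

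Neurod1 stayed at or below 0.129 FPKM in iMEFs and Sox1 was listed at 0 in all 6 libraries, and neither was tested there. ESCs and iMEFs were fitted as separate tables, and the difference between them was not tested.

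**Figure D3:**
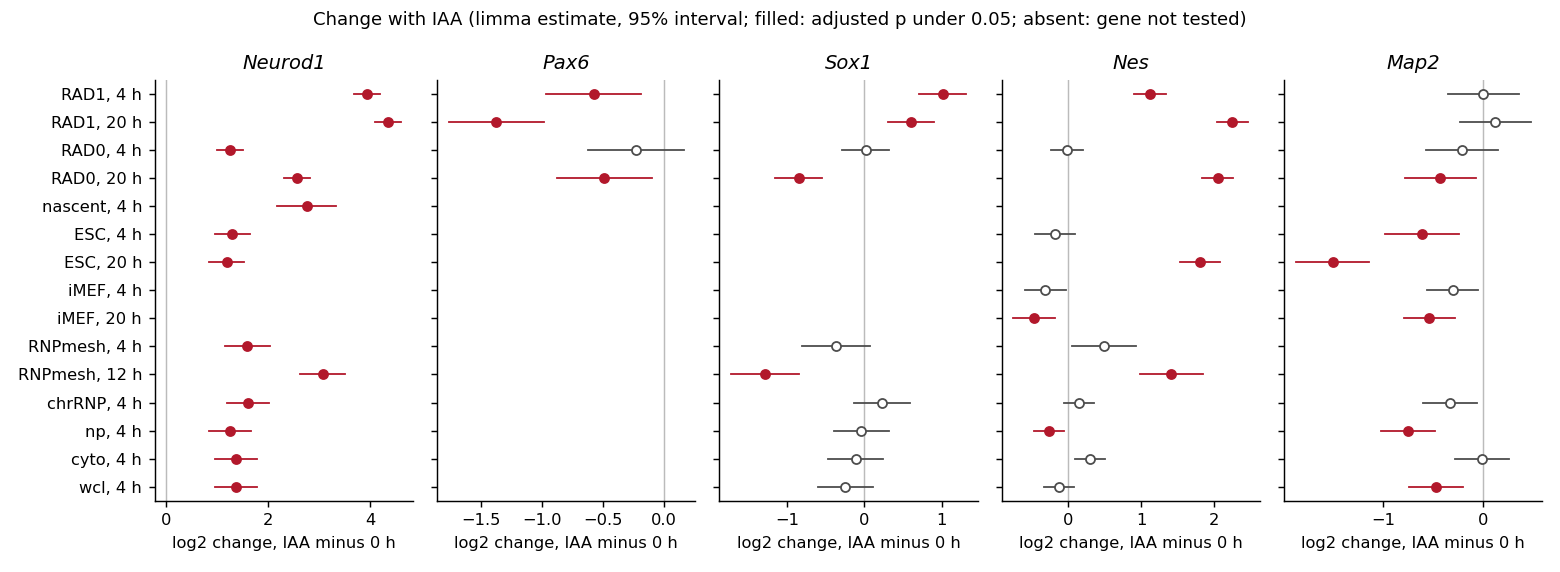
Log2 change with IAA (horizontal axis, limma estimate on log2(value + 1)) of 5 genes in 15 comparisons with 0 h, with 95% intervals as bars. Filled points passed an adjusted p under 0.05, open points did not, and missing points mark genes not tested in that table, and nascent RNA is shown at 4 h. Neurod1 lies right of 0 in every comparison shown for it, and Nes lies right of 0 at 20 h in RAD1, RAD0 and ESCs and left of it at 20 h in iMEFs.

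In the RNPmesh pellet, Neurod1 measured 3.28 and 4.07 FPKM at 0 h, 13.4 and 12.6 FPKM at 4 h and 36.7 and 40.0 FPKM at 12 h. Each time stood above the one before without overlap, with log2 changes of 1.59 ± 0.19 at 4 h (adjusted p = 0.00330) and 3.08 ± 0.19 at 12 h (adjusted p = 6.11e-05). The 4 h call was lost, at an adjusted p of 0.0623, without the first 4 h library. Nes measured 2.10 and 2.28 FPKM at 0 h, 3.04 and 3.94 FPKM at 4 h and 7.61 and 7.41 FPKM at 12 h, and rose by 1.42 ± 0.19 at 12 h (adjusted p = 0.000654).

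Sox1 went the other way in the pellet, measuring 4.42 and 3.81 FPKM at 0 h, 2.65 and 3.33 FPKM at 4 h and 1.07 and 1.12 FPKM at 12 h. It fell by 1.29 ± 0.19 at 12 h (adjusted p = 0.00106), as it did in RAD0 poly(A) RNA at 20 h. Of 3 tested genes of the set, 1 was higher and 0 lower at 4 h, where 5.49% of 12725 genes were higher and 19.1% lower (24.6% called), and 2 were higher and 1 lower at 12 h, where 16.3% were higher and 31.6% lower (48.0% called). After rescaling 11.9% were higher and 9.07% lower at 4 h, and 24.5% and 23.6% at 12 h, and the Nes value at 4 h passed as well (0.69, adjusted p = 0.0284, beside 0.49 and 0.0955 as deposited). The neuron marker sum of the pellet was 84.7 to 121 FPKM at 0 h, 76.5 to 88.7 FPKM at 4 h and 34.9 to 58.2 FPKM at 12 h, with Dcx at 0 in every group. The neural crest sum was 33.8 to 46.6, 14.3 to 18.7 and 9.60 to 15.9 FPKM at these times. At least 1 FPKM was averaged by 3, 3 and 2 of the 6 neuron markers at 0, 4 and 12 h, and by 2 of the 5 neural crest markers at each time. The part of both sums in the values above was not tested. In the second 0 h library, 42.2% of the summed values belonged to Snord49b, a small nucleolar RNA.

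Neurod1 was higher at 4 h than at 0 h in all 4 subcellular preparations. In chrRNP it measured 8.83 and 10.1 FPKM at 4 h, against 1.72 and 3.39 FPKM at 0 h. In np it measured 18.5 and 17.8 FPKM at 4 h, against 6.51 and 7.70 FPKM at 0 h. In cyto it measured 13.7 and 15.3 FPKM at 4 h, against 5.23 and 4.76 FPKM at 0 h. In wcl the values were 15.3 and 15.9 FPKM at 4 h and 5.06 and 5.78 FPKM at 0 h, so no preparation had overlapping libraries. The log2 changes were 1.60 in chrRNP, 1.24 in np, 1.37 in cyto and 1.37 in wcl, each ± 0.19 (adjusted p = 0.000324, 0.000900, 0.00115 and 0.000900).

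Map2 in np measured 0.965 and 0.906 FPKM at 4 h, against 2.16 and 2.34 FPKM at 0 h. It fell there by 0.75 ± 0.12 (adjusted p = 0.00138, or 0.0212 after rescaling). In chrRNP Map2 measured 0.531 and 0.830 FPKM at 4 h, against 1.11 and 1.09 FPKM at 0 h. That value of -0.33 ± 0.12 did not pass (adjusted p = 0.132) and after rescaling it was -0.64 and passed (adjusted p = 0.0131). The wcl value of -0.47 ± 0.12 had an adjusted p of 0.0222, or 0.239 after rescaling, and was lost without the second 0 h or either 4 h wcl library (adjusted p up to 0.148), and the cyto value was -0.01 ± 0.12 (adjusted p = 1.00). Nes in np had a log2 value of -0.27 ± 0.09 that passed at an adjusted p of 0.0493 and did not after rescaling (0.649) or without any 1 library other than those of chrRNP at 0 h (up to 0.234), and no value of Sox1 at 4 h against 0 h passed.

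Of the 4 tested genes of the set, 1 was higher and 0 lower in chrRNP (7.95% and 0.867% of 14069 genes, 8.82% called) and in cyto (5.04% and 1.41%, 6.45% called). After rescaling, 1 was higher and 1 lower in chrRNP (8.74% and 8.38% of all genes), and 1 and 0 in cyto (3.94% and 2.45%). In wcl 1 was higher and 1 lower (5.74% and 13.5% of all genes, 19.2% called), and in np 1 was higher and 2 lower (7.43% and 23.4%, 30.8% called). After rescaling these were 1 higher and 0 lower in wcl (6.72% and 3.61% of all genes), and 1 and 1 in np (8.75% and 8.12%). At 0 h, Map2 was higher in np than in cyto, with 2.16 and 2.34 FPKM in np and 0.711 and 0.717 FPKM in cyto (log2 difference 0.92 ± 0.12, adjusted p = 8.44e-05, with 28.0% of all genes higher, 33.8% lower and 61.9% called). Nes was higher in np than in cyto as well (1.90 and 2.06 FPKM in np, 1.22 and 1.09 FPKM in cyto, log2 difference 0.47 ± 0.09, adjusted p = 0.00151). Sox1 was lower in np (1.23 and 1.05 FPKM in np, 1.70 and 2.03 FPKM in cyto, log2 difference -0.42 ± 0.16, adjusted p = 0.0439), a call that was lost after rescaling (0.256) and without any 1 np or cyto library of 0 h or 1 chrRNP, cyto or wcl library of 4 h (up to 0.190). Thus 2 genes of the set were higher and 1 lower in np than in cyto, or 3 and 0 after rescaling, when Neurod1 passed too (0.63, adjusted p = 0.000559, beside 0.43 and 0.0654 as deposited).

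Between chrRNP and cyto at 0 h the median of all genes was -0.88, with 14.3% of genes higher, 63.4% lower and 77.7% called, or 37.4% higher and 32.8% lower after rescaling. Of the set, 2 genes were higher and 2 lower, or 3 and 0 after rescaling. Sox1 measured 0.220 and 0.630 FPKM in chrRNP, against 1.70 and 2.03 FPKM in cyto, a difference of -1.02 ± 0.16 (adjusted p = 0.000136) that was -0.41 after rescaling (adjusted p = 0.0511). Nes and Map2 were higher in chrRNP, by 0.26 ± 0.09 and 0.29 ± 0.12 (adjusted p = 0.0251 and 0.0456), or by 1.16 and 1.06 after rescaling. As deposited, the call of Nes was lost without the second library of either fraction at 0 h (adjusted p up to 0.137), and that of Map2 without any 1 library of chrRNP, np or cyto at 0 h or of np or wcl at 4 h (up to 0.126). The value of Neurod1 turned from -0.79 ± 0.19 (adjusted p = 0.00234) to 0.32 (adjusted p = 0.0225) after rescaling, so no direction is given for it.

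On the sucrose gradients, which had no replicates and allow no test, Neurod1 was higher at 12 h in every fraction. Over fractions 2 to 9 it measured 7.85, 15.9, 21.5, 25.0, 22.4, 19.0, 13.0 and 6.41 FPKM at 12 h, against 3.09, 5.37, 6.43, 5.63, 6.81, 5.56, 3.12 and 1.89 FPKM at 0 h. Sox1 measured 1.60, 3.15, 3.65, 5.43, 6.92, 7.38, 4.61 and 1.87 FPKM at 12 h, against 3.70, 4.74, 6.80, 9.28, 10.2, 7.82, 4.18 and 2.29 FPKM at 0 h. Summed over the fractions, the 12 h value was 3.46 times the 0 h value for Neurod1 and 0.707 times for Sox1, beside a median of 0.895 over 11049 genes with sums of at least 10 FPKM at both times.

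The mean fraction number, weighted by FPKM, was 5.37 at 12 h and 5.22 at 0 h for Neurod1, and 5.82 at 12 h and 5.41 at 0 h for Sox1. Both shifts, 0.15 and 0.40, lay between the 5th and 95th percentiles of all genes (0.0103 and 0.747), whose median shift was 0.44. Nes and Map2 were below 1 FPKM in every fraction.

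**Figure D4:**
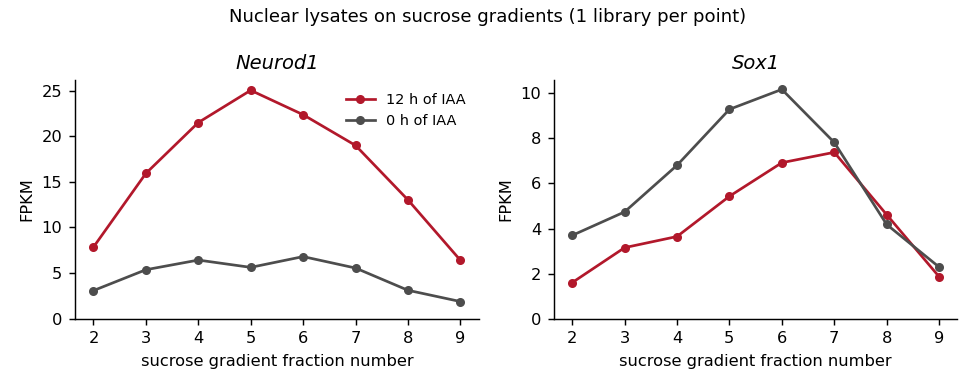
FPKM (vertical axis) of Neurod1 and Sox1 in sucrose gradient fractions 2 to 9 (horizontal axis) of nuclear lysates, with 12 h of IAA in red and 0 h in grey and 1 library per point. Neurod1 at 12 h lies above 0 h in every fraction and peaks at 25.0 FPKM in fraction 5, while Sox1 at 12 h lies below 0 h in every fraction except fraction 8.

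H3K27ac, a histone mark of active promoters and enhancers, was listed within 2 kb of the gene start of 2 of the 7 genes at both times, Neurod1 and Sox1, while 30.9% of 27025 RefSeq genes had such a peak at 4 h and 29.7% at 0 h. The peaks at Neurod1 differed between the lists. At 4 h a single peak lay inside the gene region, 1403 bases past its start (chr2:79454391-79455233), whereas at 0 h 2 peaks lay 440 and 1678 bases before the start (chr2:79457076-79457900 and chr2:79458314-79459534). None of these 3 peaks overlapped a peak of the other list, while 69.2% of the 20449 peaks at 4 h and 87.7% of the 16239 peaks at 0 h did so. The labels give separate 0 h libraries as controls for 4 h and for 20 h. Which of them entered the 0 h list is not stated, so it may not be the matched control of the 4 h list.

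Sox1 had 2 peaks flanking its start in both lists, 218 and 25 bases from it at 4 h and 255 and 2 bases from it at 0 h, each overlapping its counterpart. In the 4 h list these peaks reach into both ends of the Sox1 window printed above. Hes5, at or under 0.134 FPKM in every library of every table, had 1 peak that began 3044 bases past its start at 4 h and 3085 bases past it at 0 h. Pax6, Nes, Map2 and Tubb3 had none within 20 kb. The lists used here hold positions only, so a peak missing from 1 list shows that it was not called there, not that the mark was absent.

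**Figure D5:**
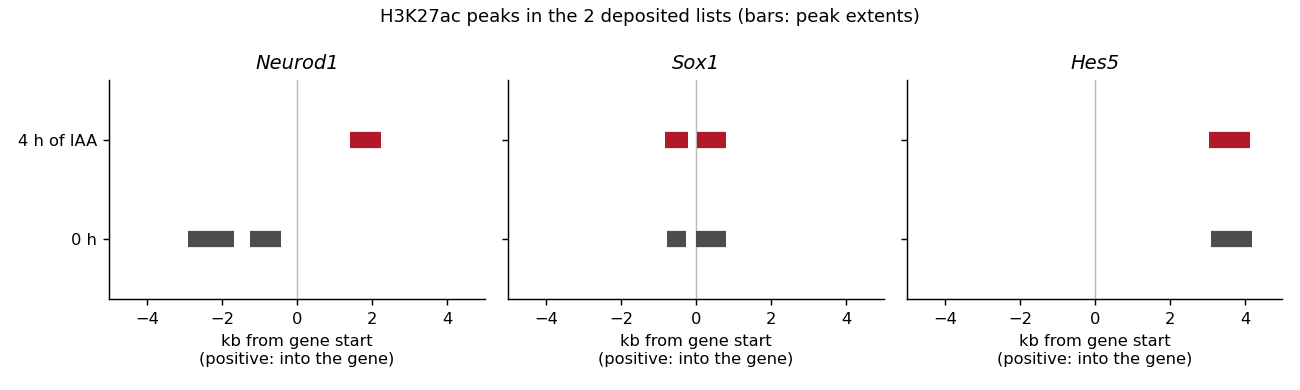
H3K27ac peaks as bars around the start of Neurod1, Sox1 and Hes5, with distance from the gene start in kb on the horizontal axis (positive into the gene) and the 4 h list above the 0 h list. At Neurod1 the 2 upstream bars at 0 h have no counterpart at 4 h and the bar inside the gene at 4 h has none at 0 h, while at Sox1 and Hes5 the bars of both lists coincide.

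Lists of 6 related pathways were read for RAD1 at 20 h against 0 h, where the median change of all tested genes was -0.11, and 23.1% of them were higher and 33.8% lower (26.9% and 28.1% after rescaling). Of 8 tested proneural and neurogenic helix-loop-helix genes, 1 rose and 5 fell, and the median change was -0.83. Tcf3, which encodes an E protein partner of Neurod1, averaged 26.2 ± 0.4 FPKM at 20 h and 44.6 ± 1.9 FPKM at 0 h (SD, n = 2 each). Olig3 averaged 0.419 FPKM at 20 h and 3.39 FPKM at 0 h. Of 23 neural plate and progenitor genes, 6 rose and 11 fell, and the median change was -0.48. Among these, Vim, an intermediate filament gene often expressed with Nes, averaged 101 FPKM at 20 h and 41.0 FPKM at 0 h (log2 change 1.28 ± 0.06, adjusted p = 5.90e-07), and the homeobox gene Gbx2 averaged 18.0 FPKM at 20 h and 89.0 FPKM at 0 h (-2.24 ± 0.08, adjusted p = 1.37e-07).

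Of 28 Notch pathway and HES, HEY and ID repressor genes, 14 rose and 4 fell (15 and 1 after rescaling), and the median change was 0.23. The Notch ligand genes Jag2, at 37.0 FPKM at 20 h and 6.14 FPKM at 0 h, and Dll1, at 6.92 FPKM at 20 h and 0.564 FPKM at 0 h, rose (log2 change 2.41 ± 0.08 and 2.34 ± 0.12, adjusted p = 8.88e-08 and 7.38e-07). Of 19 neuronal cytoskeleton and differentiation genes, 3 rose and 10 fell, and the median change was -0.47. The tubulin gene Tubb2b averaged 16.6 FPKM at 20 h and 70.6 FPKM at 0 h, and its close copy Tubb2a, whose reads may be shared with it, averaged 3.87 FPKM at 20 h and 27.2 FPKM at 0 h.

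Of 15 genes of the REST complex and other repressors of neural genes, 0 rose and 12 fell, and the median change was -0.64. They include Ehmt2, a histone methyltransferase gene, at 11.5 FPKM at 20 h and 32.5 FPKM at 0 h, and Smarca4, a chromatin remodeller gene, at 21.3 FPKM at 20 h and 42.9 FPKM at 0 h. Of 13 retinoic acid response genes, 0 rose and 11 fell, and the median change was -1.41. Hoxb1, a homeobox gene that retinoic acid turns on, averaged 4.01 FPKM at 20 h and 73.8 FPKM at 0 h, and Cyp26b1, an enzyme that breaks down retinoic acid, averaged 1.17 FPKM at 20 h and 31.3 FPKM at 0 h. The lists are described by these counts alone, and nothing is drawn from them about the list as a whole.

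Over the 12 poly(A) libraries of the retinoic acid experiment, whose 6 groups they share, the genes most like each member were found by Pearson correlation of log2 values among 8982 genes with a group mean of at least 5 FPKM. For Neurod1 they were N4bp1 (r = 0.988), Frrs1 (r = 0.984) and Siah1b (r = 0.979). For Nes they were Bbs7 (r = 0.994), Pdcd6ip (r = 0.993) and Mfge8 (r = 0.990), for Sox1 Stat4 (r = 0.977), Dact3 (r = 0.965) and Chst15 (r = 0.958), and for Pax6 Dock6 (r = 0.977), Igdcc3 (r = 0.976) and Cotl1 (r = 0.975). No gene was as close to Map2, whose nearest was Fsd1 (r = 0.930).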

How the data were processed

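Expression values were used as deposited by the authors: FPKM per gene for all tables except the nascent one, made with TopHat2 2.0.11, Cufflinks 2.0.2 and bedtools on mm10, per the submitters' processing notes. The nascent table holds RPKM over each gene's span, as deposited by the authors, made with Trim Galore, TopHat2 2.0.11 and bedtools on mm10 and dm6, per the same notes. That its unit is RPKM was read from the values. The sources used here do not say if spike-in reads scaled a table. The H3K27ac lists were made with Bowtie2 2.2.6, MACS2 and bedtools, per the same notes, and hold positions only, with no replicates.

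From these, log2(value + 1) was fitted per table across all groups with limma 3.58.1 in R 4.3.3 (trend, moderated statistics, Benjamini-Hochberg adjustment over all genes tested), keeping genes with at least 1 in at least 2 libraries. Changes on this scale understate those of low genes. For rescaling, the ratio of every tested gene to its own mean in the table was taken within a library, and the library was divided by the median of those ratios. Counts of reads and depth are unknown for FPKM tables, where 10294 to 13552 genes per library reached at least 1. A peak was placed at a gene when it lay within 2 kb of a RefSeq gene start (GRCm38.p6), and peaks overlapping by at least 1 base were called shared. Promoters of all 7 genes matched by symbol in RefSeq.

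Replicate numbers were not used to pair libraries. Deviations from group means of same-numbered libraries correlated between -0.145 and 0.145 over the 6 replicated tables. Named are the 7 genes, Exosc2, the 2 genes with the smallest p per list and comparison among those called with a mean of at least 1 in the higher group, and the 3 genes most like each one. The genes and the lists were chosen with earlier results of these data known. The limma fits of log2 values were repeated with rescaling, with 0.1 as pseudocount, without the filter, without the trend, with a replicate term and without each library in turn. The limma-voom fit of nascent pairs was not repeated in these ways.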

Additional observations from a re-analysis of the deposited data

Results flagged for a closer look

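The response of 3 genes to 4 h of IAA differed between the retinoic acid states in a direct test of the difference (RAD1 change minus RAD0 change, limma interaction term, Benjamini-Hochberg adjusted). It was 2.70 for Neurod1 (adjusted p = 2.23e-05), 1.00 for Sox1 (adjusted p = 0.00544) and 1.14 for Nes (adjusted p = 0.000580), and all 3 held with any 1 library left out. For Neurod1, a larger rise in RAD1 cannot be told apart from a weaker fall in the cells given retinoic acid. At 20 h the difference was 1.80 for Neurod1 (adjusted p = 0.000147), 1.45 for Sox1 (adjusted p = 0.000929) and -0.88 for Pax6 (adjusted p = 0.0283, lost under several alternatives).

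Nes went up in both ESC libraries and down in both iMEF libraries at 20 h relative to the 0 h libraries, a log2 change larger by 2.28 in ESCs than in iMEFs. This difference spans separately normalised tables and was not tested.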

How the results depend on the processing

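Of 50 called changes of the set in the limma fits of log2 values, 34 kept their direction and call under every alternative and 16 did not. After rescaling, the number of genes of the set called became 3 for RAD0 at 20 h (main value 5), 1 for ESCs at 4 h (2), 1 for iMEFs at 20 h (2), 2 for chrRNP at 4 h (1), 1 for wcl at 4 h (2) and 2 for RNPmesh at 4 h (1). With no filter it was 3 for RAD0 at 20 h, 1 for ESCs at 4 h and 1 for iMEFs at 20 h, and with a pseudocount of 0.1 it was 1 for ESCs at 4 h. With the replicate block it was 0 for nascent RNA at 4 h (Neurod1 adjusted p = 0.0754) and 1 for ESCs at 4 h (Map2 adjusted p = 0.0623), and further calls crossed the threshold for Map2 in RAD0 at 20 h (0.0614), Nes in np (0.0523), Map2 between chrRNP and cyto (0.0541) and Neurod1 between np and cyto (0.0424). Same-numbered libraries share only a number. With 1 library left out, the counts ranged over 3 to 4 for RAD0 at 20 h, 0 to 1 for nascent RNA at 4 h, 1 to 2 for ESCs at 4 h, 0 to 2 for iMEFs at 20 h, 1 to 2 for wcl at 4 h, 2 to 4 between chrRNP and cyto, and 0 to 1 for RNPmesh at 4 h. A window of 1 kb left 1 gene with an H3K27ac peak at 4 h. Directions turned after rescaling for Neurod1 between chrRNP and cyto (0.32), and for changes that had not passed: Nes in RAD0 at 4 h (0.048), ESCs at 4 h (0.033), chrRNP (-0.083) and wcl (0.028), Sox1 in np (0.10) and Map2 in RAD1 at 4 h (0.080, and 0.0031 with a pseudocount of 0.1). With 1 library left out, uncalled values spanned 0 for Sox1 (-0.11 to 0.14) and Nes (-0.069 to 0.031) in RAD0 at 4 h, Map2 in RAD1 at 4 h (-0.10 to 0.10), Sox1 in np (-0.18 to 0.10) and Map2 in cyto (-0.12 to 0.10). The cause of these shifts was not tested. The genes called over the whole table ranged over the alternatives from 1250 to 3005 for RAD0 at 4 h (main value 2898), 0 to 12 for nascent RNA at 1 h (4), 0 to 145 at 2 h (1) and 2 to 1042 at 4 h (169), 171 to 5114 for ESCs at 4 h (3196), 100 to 382 for iMEFs at 4 h (212) and 1244 to 4844 at 20 h (3557), 565 to 5550 for chrRNP (1241), 2063 to 6001 for np (4333), 470 to 1153 for cyto (907), 1134 to 4211 for wcl (2707) and 55 to 3787 for RNPmesh at 4 h (3125). Groups of 2 libraries limit the precision throughout.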

Other observations

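The lists of related genes gave other counts outside the retinoic acid experiment. In ESCs at 20 h, 14 of 15 genes of the REST complex and other repressors of neural genes were lower and 0 higher (9 and 2 after rescaling), beside 67.8% of all genes lower and 9.47% higher, or 27.8% and 27.5% after rescaling. Rest, the repressor that gives the list its name, averaged 17.3 FPKM at 20 h and 75.2 FPKM at 0 h, and Rcor2, a corepressor gene, averaged 9.63 FPKM at 20 h and 47.4 FPKM at 0 h. Of 25 Notch and repressor genes, 2 were higher and 16 lower as deposited and 13 higher and 2 lower after rescaling, so no direction is given for that list. Jag2 averaged 14.3 FPKM at 20 h and 4.17 FPKM at 0 h.

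In the RNPmesh pellet at 12 h, 12 of 18 neuronal cytoskeleton and differentiation genes fell and 3 rose, beside 31.6% and 16.3% of all genes, and the median change was -1.09 beside -0.23 for all genes. After rescaling the list had 11 lower and 4 higher, beside 23.6% and 24.5% of all genes. Uchl1, a ubiquitin hydrolase gene of neurons, averaged 16.2 FPKM at 12 h and 95.0 FPKM at 0 h. Of 26 Notch and repressor genes in the pellet at 12 h, 7 were higher and 7 lower, or 10 and 6 after rescaling. Notch3, a receptor gene of that list, averaged 25.6 FPKM at 12 h and 3.80 FPKM at 0 h. In iMEFs at 20 h, 8 of 13 genes of the cytoskeleton list were lower and 0 higher, beside 22.2% and 5.21% of all genes (7 and 0 after rescaling, beside 13.5% and 13.2%). The tubulin gene Tuba1a was among them, at 90.2 FPKM at 20 h and 179.8 FPKM at 0 h.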
